A study of Mus musculus with 10 samples.

Results

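The genes described here encode the enzymes that place methyl groups on cytosine in DNA, the proteins that guide them, and the enzymes that take the mark away. They were chosen by name: Dnmt1, Dnmt3a, Dnmt3b, Dnmt3l, Uhrf1, Tet1, Tet2, Tet3 and Tdg, 9 genes of the 52636 gene identifiers in the count tables. Each symbol matched 1 Ensembl identifier, and all 9 passed the filter on low counts that left 16005 genes for testing. They were proposed with results of this same comparison in view, so their differences between the groups are given as a description, with the standard error and without a p-value of their own.

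RNA sequencing was done on E14 cells, a mouse embryonic stem cell line, which were kept in serum medium with the cytokine LIF and inhibitors of MEK and GSK, and were then moved to medium without LIF and the inhibitors and with 2 µM retinoic acid for 24 h. The WT group held 2 libraries of unedited cells, and the CBE-KO group held 2 libraries of cells without 1 binding element for the chromatin protein CTCF, whose bearing on enhancer contacts with HoxA was what the study asked about. Both groups received retinoic acid, so no untreated level is known from these data. The libraries are described as biological replicates, and the labels used here do not say whether the CBE-KO cells are 1 clone. Capture-C data of the series (6 samples) are not used here, and DNA methylation itself was not measured in these libraries.

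DNA methylation in mammals sits mainly on cytosine followed by guanine (CpG). Dnmt3a and Dnmt3b methylate DNA that carries no mark, which is called de novo methylation, and Dnmt3l is a relative without catalytic activity that stimulates them. Dnmt1 copies the mark to the new strand after replication, and Uhrf1 brings Dnmt1 to sites marked on the old strand alone. The dioxygenases Tet1, Tet2 and Tet3 oxidise methylcytosine, and the glycosylase Tdg cuts out the later oxidation products so that base excision repair can restore plain cytosine. Naive embryonic stem cells held under MEK and GSK inhibition are known for low genome methylation and low de novo enzyme levels, and the de novo enzymes are known to increase as such cells leave the naive state.

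The libraries held 14108038 to 15632960 counts, at which 3 counts correspond to 0.192 to 0.213 CPM (counts per 1e6 counts), and the 9 genes took 0.249% and 0.259% of the counts of the WT libraries and 0.190% and 0.189% of those of the CBE-KO libraries. Of the 16005 genes tested with edgeR's quasi-likelihood test, 6895 (43.1%) passed a Benjamini-Hochberg adjusted p of 0.05, 3461 (21.6%) as higher in CBE-KO and 3434 (21.5%) as lower. With libraries scaled by their totals alone, in place of the trimmed mean of M-values (TMM), 67.0% of the called genes were higher instead of 50.2%, and the median over all genes moved to 0.11 (log2). The groups also differed in a way the labels do not describe: Ddx3y, Eif2s3y, Uty and Uba1y, which lie on the Y chromosome, had 0 to 7 counts in each WT library and 267 to 920 in each CBE-KO library. Another Y-linked gene, Kdm5d, gave 0 to 1 reads per WT library and 4 to 7 per CBE-KO library. The missing element and whatever else separates the lines, Y-linked expression included, cannot be told apart in any comparison below.

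The genes for de novo methylation were the ones that moved furthest. Dnmt3l fell to 0.305 of its WT level, Dnmt3b to 0.458 and Dnmt3a to 0.675. Uhrf1 and Tet1 fell to 0.820 and 0.804, while Dnmt1, Tet2, Tet3 and Tdg did not pass the test. In all, 5 of the 9 genes passed as lower and 0 as higher in edgeR, where 43.1% of all tested genes passed and 21.5% passed as lower. At an unadjusted p under 0.05 the edgeR counts were 6 lower and 0 higher, and DESeq2 gave the same counts of 5 and 0 adjusted and 6 and 0 unadjusted. The CPM of the 2 groups did not overlap for 8 of the 9 genes, against 70.4% of all tested genes, and the exception was Tet2. The median log2 fold change of the 9 was -0.29, beside 0.01 for all genes tested. Since this contrast was used in choosing the genes, nothing is read from these counts.

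**Figure D1:**
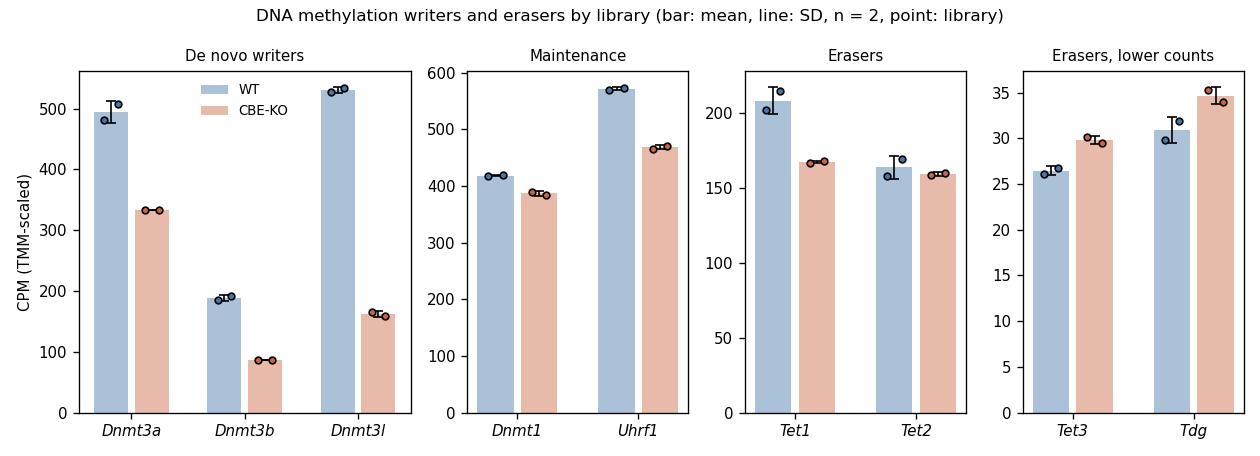
Level of each gene in each library in TMM-scaled CPM, with bars at the mean of 2 libraries, lines for the SD and a point per library. The WT and CBE-KO points are far apart for Dnmt3l (527 and 533 against 165 and 158 CPM) and Dnmt3b, and they overlap for Tet2. Panels have separate axes that start at 0, and heights of different genes are not comparable because transcript length is not removed.

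Dnmt3l (ENSMUSG00000000730, chr10:78042287-78063622, GRCm38) showed the largest difference of the set. It gave 7709 and 7349 reads in the WT libraries, against 2686 and 2310 in the CBE-KO libraries, or 527 and 533 CPM against 165 and 158 CPM. Both CBE-KO libraries lay far below both WT libraries, and the replicates differed by 1.25% of their mean in WT and 4.16% in CBE-KO. The log2 fold change was -1.71 ± 0.05 (SE), and 122 of the 16005 tested genes fell further. The genes were proposed with this contrast in view, so this rank and that of Dnmt3b below are descriptions. Dnmt3l binds the unmethylated tail of histone H3 and forms complexes with Dnmt3a and Dnmt3b.

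Dnmt3b (ENSMUSG00000027478, chr2:153649411-153687730), one of the catalytic de novo enzymes, gave 2712 and 2636 reads in the WT libraries, against 1396 and 1263 in the CBE-KO libraries. These correspond to 185 and 191 CPM in WT and 85.9 and 86.6 CPM in CBE-KO, with no overlap between groups. Its log2 fold change was -1.13 ± 0.05 (SE), and 362 tested genes fell further. Dnmt3a (ENSMUSG00000020661, chr12:3801559-3914443), the other catalytic de novo enzyme, gave 7044 and 6987 reads in the WT libraries, against 5419 and 4867 in the CBE-KO libraries. On the CPM scale it went from 481 and 507 in WT to 333 and 334 in CBE-KO, and the log2 fold change was -0.57 ± 0.05 (SE). The CBE-KO replicates of Dnmt3a differed by 0.172% of their mean and the WT replicates by 5.22%, and the groups did not overlap. Gene counts do not separate the long Dnmt3a product from the shorter one that starts inside the gene, so which of them changed is not known from these tables.

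The 3 de novo genes did not fall by the same factor, which raw counts show within each library without any scaling between libraries. The ratio of Dnmt3l to Dnmt3a counts was 1.09 and 1.05 in WT and 0.496 and 0.475 in CBE-KO. For Dnmt3b to Dnmt3a it was 0.385 and 0.377 in WT and 0.258 and 0.260 in CBE-KO, and for Dnmt3l to Dnmt3b it was 2.84 and 2.79 in WT and 1.92 and 1.83 in CBE-KO. The changes between groups were -1.15, -0.56 and -0.59 on the log2 scale, beside pooled SDs between replicates of 0.04, 0.02 and 0.04 (n = 2 per group). An SD from so few libraries can fall below counting error. On the difference between the WT replicates, counting error alone was 1.69% for Dnmt3a and 2.74% for Dnmt3b. The value of such a ratio depends on the lengths of both transcripts, and only its change between libraries is comparable. Summed over the 3 genes, the CPM went from 1194 and 1232 in WT to 584 and 579 in CBE-KO, a factor of 0.480.

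**Figure D2:**
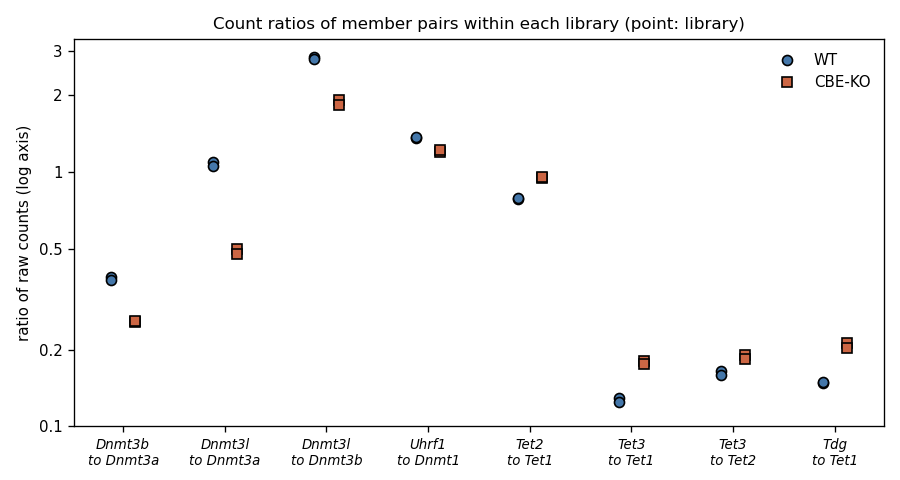
Ratio of the raw counts of a pair of genes within each library, on a log axis, with circles for WT and squares for CBE-KO libraries. The ratios of Dnmt3b and Dnmt3l to Dnmt3a are lower in both CBE-KO libraries, and those of Tet2, Tet3 and Tdg to Tet1 are higher, for example 0.181 and 0.176 against 0.129 and 0.125 for Tet3 to Tet1.

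The start regions of the 3 de novo genes are shown because these genes fell most and their sequence was not used to choose them. The RefSeq promoter windows used here (GRCm38.p6) cover 3 starts for Dnmt3l, 1 for Dnmt3b and 3 for Dnmt3a. Each line gives the 250 bases before a start, 5′ to 3′ on the strand of the gene (all are on the + strand), with every CG pair in capitals. Starts 1 and 3 of Dnmt3a are shown, and start 2 is left out because its window overlaps that of start 1.
Dnmt3l, start 1, chr10:78042037-78042286: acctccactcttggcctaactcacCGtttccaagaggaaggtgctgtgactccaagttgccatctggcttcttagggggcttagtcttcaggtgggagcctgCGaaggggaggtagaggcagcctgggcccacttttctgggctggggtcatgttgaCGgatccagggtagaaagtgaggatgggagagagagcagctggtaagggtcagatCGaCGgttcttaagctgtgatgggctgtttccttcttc
Dnmt3l, start 2, chr10:78049592-78049841: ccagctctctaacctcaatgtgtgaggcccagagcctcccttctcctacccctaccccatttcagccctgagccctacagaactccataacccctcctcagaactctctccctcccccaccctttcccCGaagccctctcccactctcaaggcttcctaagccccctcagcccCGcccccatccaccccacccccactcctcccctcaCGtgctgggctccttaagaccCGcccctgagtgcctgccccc
Dnmt3l, start 3, chr10:78055085-78055334: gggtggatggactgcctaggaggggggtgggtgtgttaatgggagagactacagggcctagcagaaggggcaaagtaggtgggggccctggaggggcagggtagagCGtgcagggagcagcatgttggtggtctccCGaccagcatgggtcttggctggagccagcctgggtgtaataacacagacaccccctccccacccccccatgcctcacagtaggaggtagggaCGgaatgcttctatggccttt
Dnmt3b, start 1, chr2:153649199-153649448: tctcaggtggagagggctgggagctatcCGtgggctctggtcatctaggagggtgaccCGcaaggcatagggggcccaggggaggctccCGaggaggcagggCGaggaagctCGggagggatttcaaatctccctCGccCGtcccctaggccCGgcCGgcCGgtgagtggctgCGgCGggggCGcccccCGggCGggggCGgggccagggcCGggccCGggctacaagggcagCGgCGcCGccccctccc
Dnmt3a, start 1, chr12:3806730-3806979: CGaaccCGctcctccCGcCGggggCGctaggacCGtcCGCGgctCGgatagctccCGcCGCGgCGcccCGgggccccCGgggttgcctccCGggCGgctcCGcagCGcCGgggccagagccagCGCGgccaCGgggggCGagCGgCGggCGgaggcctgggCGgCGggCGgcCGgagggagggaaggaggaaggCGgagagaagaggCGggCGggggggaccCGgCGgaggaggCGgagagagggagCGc
Dnmt3a, start 3, chr12:3891494-3891743: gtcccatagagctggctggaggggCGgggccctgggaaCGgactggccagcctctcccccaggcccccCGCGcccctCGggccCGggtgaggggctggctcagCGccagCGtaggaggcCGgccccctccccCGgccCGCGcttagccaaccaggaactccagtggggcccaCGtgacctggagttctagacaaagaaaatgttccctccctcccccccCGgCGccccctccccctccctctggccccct

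The Dnmt3l windows held fewer CG pairs than those of Dnmt3a and Dnmt3b. Over the window from 250 bases before to 50 bases after the start, the Dnmt3l starts held 6, 4 and 3 CG pairs, where the median of 32851 RefSeq promoter windows of 300 bases was 7. The Dnmt3b window held 30, more than 88.3% of all windows. The Dnmt3a windows held 46, 47 and 18, and windows 1 and 2 overlap each other. Among the remaining genes the counts were 2, 12 and 33 for the starts of Dnmt1, 12 and 33 for Uhrf1, 17 for Tet1, 57 for Tet2, 22 for Tet3 and 26 for Tdg. So Dnmt3l was the gene of the set with no start above the median among these windows. The RefSeq spans of Dnmt3a and Tet3 reach upstream of their first windows, so the windows need not cover every start. The tables do not show which start was in use in these cells.

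**Figure D3:**
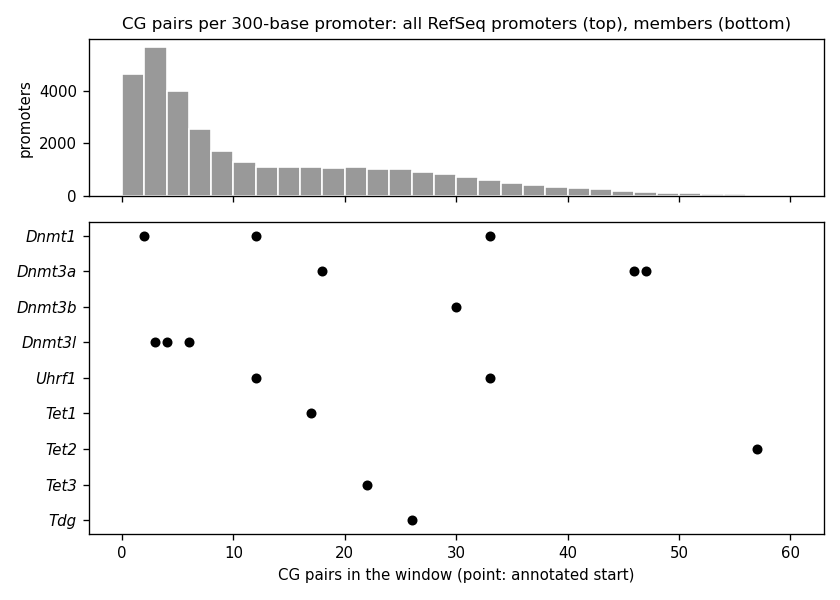
Number of CG pairs in the 300 bases around each start covered by the RefSeq promoter windows used here. A histogram shows all 32851 windows (top), and points show the covered starts of the 9 genes (bottom). The 3 Dnmt3l starts lie at 3 to 6 pairs and the Tet2 start at 57.

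Short motifs were searched on both strands of the same 16 windows. The GC box GGGCGG, bound by factors of the Sp family, was found in 12 of the 16 and in 35.7% of all windows, and it contains a CG pair itself. CCAAT, bound by NF-Y, was found in 6 of the 16 and in 37.4% of all windows. The hexamer AGGTCA, bound by many nuclear receptors, was found in 3 (start 3 of Dnmt3a, start 2 of Uhrf1, and Tet1) and in 16.3% of all windows. CACGTG, the E-box, was found in 3 (start 3 of Dnmt3a, start 2 of Dnmt3l, and Tdg) and in 7.15% of all windows. In the Dnmt3a window, CACGTG and AGGTCA (on the opposite strand) share 2 bases, and neighbouring GGGCGG or CCAAT matches also share 2 bases in windows of Dnmt3a, Dnmt1 and Uhrf1. These matches are letters in the sequence and say nothing about binding.

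Maintenance methylation showed smaller differences. Uhrf1 (ENSMUSG00000001228, chr17:56303337-56323486) gave 8334 and 7896 reads in the WT libraries, against 7576 and 6867 in the CBE-KO libraries. In CPM it stood at 570 and 573 in WT and at 466 and 471 in CBE-KO, lower in both CBE-KO libraries, with a log2 fold change of -0.29 ± 0.04 (SE). Dnmt1 (ENSMUSG00000004099, chr9:20907206-20959888) gave 6104 and 5775 reads in the WT libraries, against 6339 and 5602 in the CBE-KO libraries. Its CPM were 417 and 419 in WT and 390 and 384 in CBE-KO, groups that did not overlap but whose log2 fold change of -0.11 ± 0.05 (SE) did not pass. With median-of-ratios scaling Dnmt1 passed as lower (-0.12), and with library totals alone its log2 fold change was -0.01. The ratio of Uhrf1 to Dnmt1 counts, which needs no scaling, was 1.37 in both WT libraries and 1.20 and 1.23 in CBE-KO. This was a log2 change of -0.17 beside a pooled SD of 0.02, which can also fall below counting error.

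The erasers did not move together. Tet1 (ENSMUSG00000047146, chr10:62804570-62887469), a dioxygenase abundant in embryonic stem cells, gave 2952 and 2951 reads in the WT libraries, against 2710 and 2445 in the CBE-KO libraries. It went from 202 and 214 CPM to 167 and 168 CPM, and the log2 fold change was -0.31 ± 0.05 (SE), past the threshold. Tet2 (ENSMUSG00000040943, chr3:133463677-133545136) gave 2313 and 2325 reads in the WT libraries, against 2572 and 2333 in the CBE-KO libraries. Its CPM of 158 and 169 in WT and 158 and 160 in CBE-KO overlapped, and the WT replicates differed by 6.55% of their mean. The log2 fold change of Tet2, -0.04 ± 0.05 (SE), was smaller than its error, and its sign turned to 0.07 with library totals and to 0.004 without the second WT library.

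Tet3 (ENSMUSG00000034832, chr6:83362373-83457208), the TET gene best known from the zygote and from neural differentiation, gave 382 and 369 reads in the WT libraries, against 490 and 430 in the CBE-KO libraries. It stood at 26.1 and 26.8 CPM in WT and 30.1 and 29.5 CPM in CBE-KO, with a log2 fold change of 0.17 ± 0.09 (SE) that did not pass. Tdg (ENSMUSG00000034674, chr10:82629814-82650799) gave 437 and 439 reads in the WT libraries, against 574 and 496 in the CBE-KO libraries. In CPM these were 29.9 and 31.9 against 35.3 and 34.0, a log2 fold change of 0.17 ± 0.08 (SE), also not past the threshold. For both genes the CBE-KO libraries were the higher ones without overlap, and both passed as higher with library totals alone (log2 fold changes of 0.28 and 0.27). Their counts of 369 to 574 give counting errors of 6.13% to 7.30% on the difference between 2 replicates, the widest of the set.

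Within libraries, the other erasers were higher relative to Tet1 in CBE-KO. The ratio of Tet2 to Tet1 counts was 0.784 and 0.788 in WT and 0.949 and 0.954 in CBE-KO. For Tet3 to Tet1 it was 0.129 and 0.125 in WT and 0.181 and 0.176 in CBE-KO, and for Tdg to Tet1 it was 0.148 and 0.149 in WT and 0.212 and 0.203 in CBE-KO. The log2 changes were 0.28, 0.49 and 0.48, beside pooled SDs between replicates of 0.006, 0.03 and 0.03 (n = 2 per group). All 3 ratios share Tet1, and an SD from 2 libraries can fall below counting error. Counting error alone was 2.6% for Tet1 and 2.94% for Tet2 on the difference between the WT replicates. The ratio of Tet3 to Tet2 went from 0.165 and 0.159 to 0.190 and 0.184. A ratio shows that 2 genes changed unequally, and not which of them changed. Summed over the 3 TET genes, the CPM were 386 and 410 in WT and 355 and 357 in CBE-KO.

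**Figure D4:**
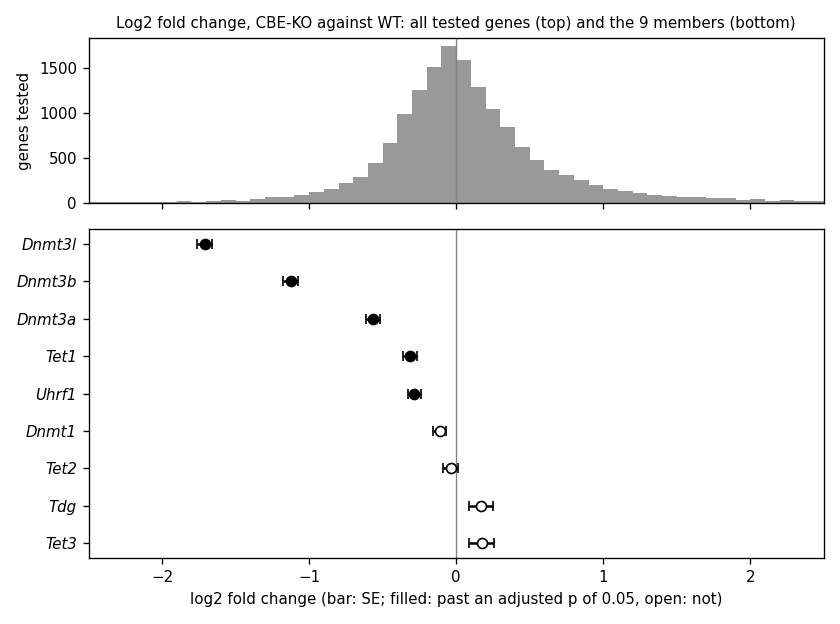
Log2 fold change of CBE-KO against WT for all tested genes between -2.5 and 2.5 (histogram, top) and for the 9 genes (bottom), with bars for the SE and filled points for genes past an adjusted p of 0.05. Dnmt3l (-1.71) and Dnmt3b (-1.13) lie in the lower tail, and the 4 open points (Dnmt1, Tet2, Tdg, Tet3) lie between -0.11 and 0.17.

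Several genes could share reads with this set. Dnmt3c, a close copy of Dnmt3b that acts in male germ cells, gave 9 and 6 reads in the WT libraries, against 3 and 5 in the CBE-KO libraries, and was not tested. The antisense genes Dnmt3aos and Dnmt3bos and the pseudogenes Dnmt3l-ps1 and Dnmt3a-ps1 had at most 5 counts in any library. Use of strand and the treatment of reads with several matches are not given in the sources used here, so counts of these neighbours and of the genes above cannot be fully separated.

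Cofactors of methylation outside the set were mixed in direction. Of 18 listed genes 16 were tested, 7 fell and 4 rose (68.8% of those tested, beside 43.1% of all genes), and the median log2 fold change was -0.01 beside 0.01 for all genes. With library totals alone the balance turned, 7 being called higher and 4 lower. Ehmt2, a histone H3 lysine methyltransferase also known as G9a, gave 5932 and 5438 reads in the WT libraries, against 4022 and 3591 in the CBE-KO libraries, and fell by 0.70 on the log2 scale (SE 0.05; edgeR adjusted p = 2.86e-09). Setd2, which writes the histone mark read by Dnmt3a and Dnmt3b in gene bodies, fell by 0.39 (SE 0.06; edgeR adjusted p = 0.000108). Uhrf2, the relative of Uhrf1, rose from 67.7 ± 1.89 to 96.4 ± 3.89 CPM (SD, n = 2 each), a rise of 0.51 (SE 0.06; edgeR adjusted p = 2.05e-06). Trdmt1, a transfer RNA methyltransferase of the same protein family (once called Dnmt2), passed as higher (0.39 ± 0.15, SE; edgeR adjusted p = 0.0439) but not in DESeq2 (adjusted p = 0.299), without the expression filter (0.0662) or without any single library (0.0529 to 0.244). Dppa3, which keeps Uhrf1 from the chromatin of oocytes and zygotes, had 6 to 10 counts per library and was not tested.

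**Figure D5:**
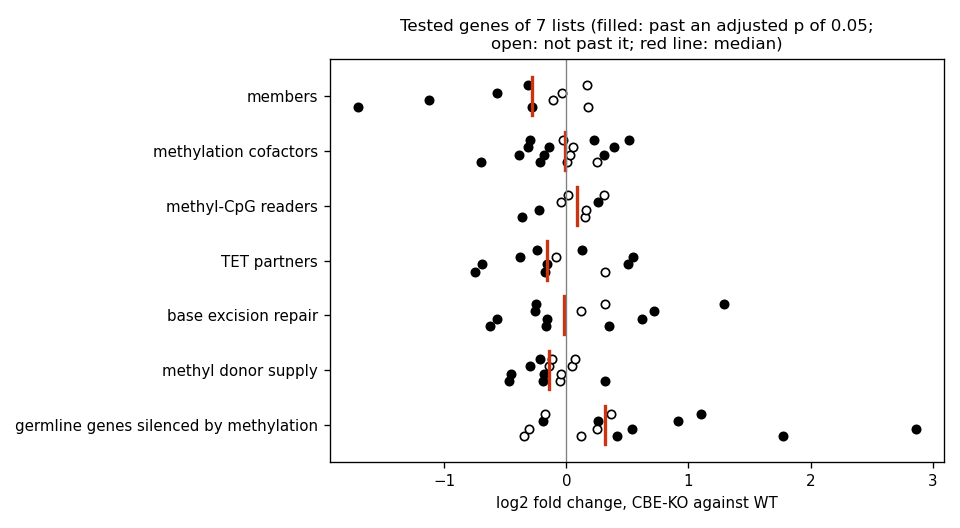
Log2 fold change of CBE-KO against WT for the tested genes of 7 lists, 1 point per gene, filled where the gene passed an adjusted p of 0.05, with the median of each list in red. Dnmt3l is the lowest point of all lists drawn, and the germline genes Dpep3 (2.86) and Dazl (1.77) are the highest.

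Among listed readers of methylated CpG and their relatives, 3 of 8 tested genes passed (37.5%, beside 43.1% of all genes). Of these 2 fell and 1 rose, with a median log2 fold change of 0.08 beside 0.01 for all genes. Mbd2 (-0.36 ± 0.08, SE; edgeR adjusted p = 0.00153) and Mbd3 (-0.23 ± 0.05, SE; edgeR adjusted p = 0.000827), members of alternative NuRD repressor complexes, were the ones that fell. Mbd4, a glycosylase for mismatched thymine at CpG, was just past the threshold as higher (0.26 ± 0.10, SE; edgeR adjusted p = 0.0494), a call lost under 7 of its 11 alternatives, DESeq2 (adjusted p = 0.354) and leaving out any single library (0.0924 to 0.155) among them. With library totals alone, 5 genes of this list passed, 3 as higher and 2 as lower.

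Partners of the TET enzymes included genes that moved in both directions. Of 12 listed genes 11 were tested, 6 fell and 3 rose (81.8%, beside 43.1% of all genes), and the median was -0.16 beside 0.01 for all genes. With library totals alone 3 were called higher and 3 lower, with a median of -0.05. Gadd45a, a stress-response gene linked to demethylation, gave 1423 and 1231 reads in the WT libraries, against 890 and 818 in the CBE-KO libraries, and fell by 0.75 (SE 0.06; edgeR adjusted p = 4.22e-08). Its relative Gadd45g fell by 0.69 (SE 0.10; edgeR adjusted p = 1.67e-05). Idh1, which makes the TET cosubstrate alpha-ketoglutarate, rose from 81.5 ± 2.93 to 115 ± 1.84 CPM (0.50 ± 0.05, SE; edgeR adjusted p = 1.05e-06). Oga, which removes the sugar modification that the TET-binding enzyme Ogt adds, rose by 0.54 (SE 0.06; edgeR adjusted p = 6.51e-07).

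Base excision repair, the route by which oxidised methylcytosine is replaced, also split. All 12 listed genes were tested, 6 fell and 4 rose (83.3%, beside 43.1% of all genes), with a median of -0.02 whose sign depended on scaling. With library totals alone the balance turned, 5 being called higher and 2 lower, and in DESeq2 3 fell and 3 rose. Neil3, a DNA glycosylase, gave 98 and 125 reads in the WT libraries, against 307 and 286 in the CBE-KO libraries, and rose by 1.29 (SE 0.15; edgeR adjusted p = 1.94e-06). Neil2 (0.71 ± 0.18, SE; edgeR adjusted p = 0.00339) did not pass in DESeq2 (adjusted p = 0.0575). Smug1, another glycosylase, rose by 0.62 (SE 0.11; edgeR adjusted p = 0.000276). Apex1, the main endonuclease at sites left without a base, fell from 63.7 ± 1.27 to 41.3 ± 1.03 CPM (-0.62 ± 0.07, SE; edgeR adjusted p = 1.15e-06).

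Supply of the methyl donor S-adenosylmethionine was the last pathway list. Of 13 tested genes 6 fell and 1 rose (53.8%, beside 43.1% of all genes), with a median of -0.15 beside 0.01 for all genes. With library totals alone 3 were called lower and 2 higher, with a median of -0.04. Mtrr, which keeps methionine synthase active, fell by 0.47 (SE 0.07; edgeR adjusted p = 1.85e-05), and Mat2b, a regulatory subunit of the donor-making enzyme, fell by 0.46 (SE 0.06; edgeR adjusted p = 9.21e-06). Shmt2, of mitochondrial one-carbon metabolism, fell by 0.30 (SE 0.05; edgeR adjusted p = 6.37e-05). Ahcyl1, which resembles the enzyme that clears the used donor, was the one that rose (0.32 ± 0.05, SE; edgeR adjusted p = 0.000123).

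Germline genes whose promoters are known to be silenced by methylation in somatic cells were listed as possible readouts. Of 15 genes 14 were tested, 7 rose and 1 fell (57.1%, beside 43.1% of all genes), and the median log2 fold change was 0.31 beside 0.01 for all genes. Dazl, an RNA-binding protein of germ cells, gave 219 and 227 reads in the WT libraries, against 884 and 770 in the CBE-KO libraries, and rose by 1.77 (SE 0.09; edgeR adjusted p = 4.70e-11). Dpep3 went from 7 and 5 counts to 44 and 52 (2.86 ± 0.40, SE; edgeR adjusted p = 1.83e-05). Slc25a31, an ADP/ATP carrier of the testis, rose by 0.92 (SE 0.15), and Brdt, a bromodomain protein of spermatogenesis, rose by 1.10 (SE 0.24), with edgeR adjusted p of 0.000116 and 0.000994. Ddx4, Sycp1, Sycp3, Tex101, Tdrd1 and Hormad1 did not pass. The gene that fell, Rpl10l (-0.19), is a near copy of Rpl10, so its counts may hold reads of the latter. Its call was lost with library totals (edgeR adjusted p = 0.182) and without the first CBE-KO library (edgeR adjusted p = 0.118). Whether these differences go with methylation at these genes was not tested.

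Markers of cell state moved alongside the methylation genes, and their part in the differences was not tested. Pou5f1 and Sox2, which define embryonic stem cells, had 11859 to 15841 and 3827 to 5074 counts per library, and each was lower in CBE-KO (-0.33 and -0.35). Nanog, the other defining gene, was higher (0.15; edgeR adjusted p = 0.0107), a call lost without either CBE-KO library (0.0519 and 0.146). Of 12 stem cell markers 7 fell and 2 rose (75% called, beside 43.1% of all genes), with a median log2 fold change of -0.34 beside 0.01 for all genes, and their summed level was 5501 to 5632 CPM in WT and 4349 to 4407 in CBE-KO. Utf1 (-1.67), Lin28a (-1.05), Sall4 (-0.94) and Klf4 (-0.49) fell most. Prdm14, a known repressor of Dnmt3b and Dnmt3l that was singled out after its values were seen, gave 272 and 266 reads in the WT libraries, against 310 and 291 in the CBE-KO libraries, a log2 fold change of 0.04 ± 0.11 (SE) that did not pass. Of 12 genes of the retinoic acid response 9 rose and 2 fell (91.7% called), with a median log2 fold change of 0.83, and their sums were 1360 to 1362 CPM in WT and 1776 to 1838 in CBE-KO. Cyp26a1 (1.70), Stra6 (1.39), Crabp2 (1.23) and Dhrs3 (0.96), which break down, take up, bind or reduce retinoids, rose most.

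Markers of other cells were examined in the same libraries. All 10 primitive endoderm markers were tested, and 6 rose (60%, where 21.6% of all genes were called higher). The median log2 fold change was 0.36 beside 0.01 for all genes. Their sum went from 221 to 232 CPM in WT to 281 to 286 in CBE-KO. Sox7 (0.81), Dab2 (0.77), Gata4 (0.72) and Lama1 (0.55) rose most. Gata6 (0.009), Sox17 (0.20), Foxa2 (-0.08) and Pdgfra (-0.04) did not pass, so the list did not move as a whole. Of 8 fibroblast markers 2 were tested and 1 rose. Dcn, Lum, Postn and Twist2 had 0 counts in every library, and the list summed to 11.3 to 12.9 CPM in WT and 14.8 to 17.6 in CBE-KO. For the rare cells that resemble the 2-cell embryo, 4 of 6 matched markers were tested. All 4 rose (where 21.6% of all genes were called higher), with a median log2 fold change of 2.04 beside 0.01 for all genes. The list summed to 5.74 to 7.18 CPM in WT and 26.4 to 27.1 in CBE-KO. Zscan4c (2.39 ± 0.25, SE) and Zscan4d (2.06 ± 0.20, SE) led this list. Zscan4f (2.01 ± 0.33, SE) is of the same gene family. The near-identical Zscan4 copies may share reads, so the 4 rises are not 4 separate observations. The remaining gene that rose, Usp17lc (1.39 ± 0.34, SE), is not a Zscan4 copy. It gave 13 and 16 reads in the WT libraries, against 44 and 39 in the CBE-KO libraries. In bulk RNA, a change in the share of such cells and a change in RNA per cell cannot be told apart.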

How the data were processed

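RNA-seq of 2 WT and 2 CBE-KO libraries was used, and the groups and replicate numbers come from the sample titles. The authors deposited whole-number read counts per Ensembl gene, 1 table per library without normalization. The submitters' processing notes name HISAT2 2.1.0, HTSeq 0.9.1, DESeq2 1.18.1, Bowtie2 2.3.1 and the mm10 build (GRCm38) without assigning roles. Annotation release and strand use are not given in the sources used here. Of 52636 identifiers, 52403 matched a symbol in the name table, and Oga was matched through a RefSeq synonym.

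Counts were filtered with filterByExpr, scaled by TMM and tested with glmQLFit and glmQLFTest of edgeR 4.0.16 (R 4.3.3), without covariates, two-sided, with Benjamini-Hochberg adjustment over 16005 genes and a threshold of 0.05. SE is the log2 coefficient divided by the root of the F statistic. DESeq2 1.42.0, other scalings, filters and a stricter threshold, a replicate block and leaving out each library were the alternatives. Same-numbered libraries are not stated to be prepared together. On simulated counts for 16005 genes, 200 of them changed by a log2 fold change of 1, edgeR recovered 77.0% with 7 false calls and DESeq2 64.0% with 5. The simulation changed far fewer genes than the 43.1% called here, so its rates need not hold for these data. Its changes were split equally between directions, and the main calls were nearly so (3461 higher and 3434 lower). The floor of 3 counts covers counting error only, while SEs and SDs include the spread between libraries. The genes and lists were chosen with earlier results of these data known. The share of all genes called, given beside lists, is not matched for expression level. From each list, up to 4 genes that passed are named, by size of change, with a mean of at least 1 CPM, along with all 9 genes of the set and the checks. Coordinates and sequences are RefSeq's, GRCm38.p6. A planned comparison of protein sequences was not made, since no protein table was used here.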

Additional observations from a re-analysis of the deposited data

How the results depend on the processing

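Tet3 and Tdg had the fewest reads of the set, 369 to 574 per library. The fold changes of Dnmt3a, Dnmt3b, Dnmt3l, Uhrf1 and Tet1 kept their sign and their call under all 11 alternatives that gave a value per gene, between -1.74 and -1.61 for Dnmt3l, -1.15 and -1.02 for Dnmt3b and -0.61 and -0.46 for Dnmt3a. Dnmt1 passed as lower with median-of-ratios scaling (-0.12) and did not pass with library totals (-0.01). Tet3 (0.28) and Tdg (0.27) passed as higher when only library totals were used, a setting with a median of 0.11 over all genes, and Tet2 turned to 0.066 there. Without single libraries, Tet2 ranged from -0.087 to 0.0044. The replicate block gave 7027 called genes, 6807 of them shared, and changed no call among the 9 genes (Dnmt3l -1.71, Dnmt3b -1.13, Dnmt3a -0.57). Libraries with the same number hardly deviated together (correlation 0.03 of their distances from the group means), and the numbers were not taken as pairs.

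Of all genes, DESeq2 called 4119, 1748 higher and 2371 lower, 4103 of them shared with the 6895 of edgeR, and library totals called 7122, 4770 higher and 2352 lower. At an adjusted p of 0.01, 4917 passed. Leaving out 1 library gave 5492 to 6420. In lists, DESeq2 called 6 base excision repair genes and 0 fibroblast markers (2 at an unadjusted p under 0.05). Without the expression filter 2 fibroblast markers passed, and 1 to 2 passed without single libraries. With library totals 5 genes of the methyl-CpG reader list passed. The median of the base excision repair list turned to 0.084 with library totals and 0.014 with upper-quartile scaling (-0.047 to 0.022 without single libraries), and that of the cofactors to 0.091 and 0.021. Of 462 values of 42 other named genes, 444 kept their sign and call, 18 lost the call and 0 reversed. Zscan4f, Usp17lc, Mat2a, the primitive endoderm markers and the germline genes that did not pass were not among these 42. The causes of these shifts were not tested.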

Other observations

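Mat2a, which makes the methyl donor S-adenosylmethionine, had replicates that lay far apart in both groups. It gave 1051 and 421 reads in the WT libraries, against 1236 and 449 in the CBE-KO libraries, the first replicate being the higher one in both groups. Its log2 fold change, from the fit without a replicate block, was 0.07 ± 0.30 (SE) and did not pass. Same-numbered libraries lay close, at 71.8 (WT) and 76.0 CPM (CBE-KO) for the first replicates and 30.6 and 30.8 for the second. What sets the replicates apart was not tested. Asz1, a germline gene silenced by methylation in other cells, gave 0 and 0 reads in the WT libraries, against 6 and 7 in the CBE-KO libraries, too few to be tested.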
